A study of Homo sapiens with 21 samples.

Results

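Distal FGFR1 regions are stretches of the genome where chromatin immunoprecipitation with sequencing (ChIP-seq) placed the receptor FGFR1 more than 1 kb from both ends of every protein-coding gene. They were selected on the presence of an FGFR1 peak in both lists of untransfected CAMA1 cells, at positions on chromosomes 1 to 22 and X, and 1295 of 4736 such regions (27.3%, 95% Wilson interval 26.1 to 28.6) qualified. The other 3441 lay at gene ends. CAMA1 is an established oestrogen receptor-positive breast cancer cell line with FGFR1 amplification, per the labels, and all cells, controls included, were kept without estradiol for 48 h before collection. FGFR1 was also profiled 72 h after transfection with small interfering RNA against FOXA1 (siFOXA1) or with the control siNT. In untransfected cells the other targets were H3K27ac, H3K4me3, the serine 5-phosphorylated form of RNA polymerase II (Pol II S5P) and FOXA1. Each of the 7 groups had 2 peak lists; inputs were not used here. The labels do not state whether lists of a group stem from separate cultures. Their spread may be technical, and the knockdown of FOXA1 itself was not measured here.

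FGFR1 is a receptor tyrosine kinase of the plasma membrane that binds fibroblast growth factors, and nuclear forms of the receptor are also known. H3K4me3 marks sites where transcription starts, H3K27ac marks active promoters and enhancers, and Pol II S5P is polymerase near the start of transcription. FOXA1 is a pioneer factor that opens chromatin, mostly at enhancers away from promoters, and in luminal breast cancer it prepares sites for the oestrogen receptor. Many transcription starts are not the outer end of a protein-coding gene. Alternative promoters lie inside genes, and RNA genes such as those of transfer RNAs and small nuclear RNAs lie apart from protein-coding genes.

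Sequences were read only where a promoter of the RefSeq table lay under a distal region; those of the regions themselves were not used here. In the table (GRCh38.p14), which gives 250 bases before and 50 after each start, 492 of 34961 promoters, of 405 genes, overlapped a distal region. Of the regions not near gene-free stretches, the 4 highest-ranked with a promoter of a protein-coding gene, and the 4 highest-ranked with one of a named long non-coding RNA gene and none of a protein-coding gene, give the 8 promoters printed below. The regions rank 27 to 89 among all distal regions by the mean percentile of fold enrichment over both untransfected lists, and the promoters are shown 5′ to 3′ on the strand of the gene, with capitals for the motifs searched on both strands. The motifs were the TATA box (TATAAA), the CCAAT box (CCAAT), the GC box (GGGCGG), an ETS site (CCGGAAG), the cyclic AMP response element (TGACGTCA), an AP-1 site (TGANTCA) and a forkhead site (TGTTTAC); no motif contains another. The 4 protein-coding starts are internal, 4.09 kb (ACBD4), 5.48 kb (MGAT1), 1.46 kb (PMEPA1) and 4.49 kb (BRD2) from the outer start of the gene. The printed MALAT1 start is internal too, 1.31 kb from the outer start, and those of MIR23AHG, LINC01569 and HCG14 are outer starts.
ACBD4 promoter, chr17:45135437-45135736, plus strand: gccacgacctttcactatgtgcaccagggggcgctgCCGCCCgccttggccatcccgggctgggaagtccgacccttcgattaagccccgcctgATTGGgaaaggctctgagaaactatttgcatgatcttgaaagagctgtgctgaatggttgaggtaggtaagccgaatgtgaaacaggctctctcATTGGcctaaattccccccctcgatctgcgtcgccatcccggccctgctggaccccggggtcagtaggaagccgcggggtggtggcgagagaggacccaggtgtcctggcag
MGAT1 promoter, chr5:180810088-180810387, minus strand: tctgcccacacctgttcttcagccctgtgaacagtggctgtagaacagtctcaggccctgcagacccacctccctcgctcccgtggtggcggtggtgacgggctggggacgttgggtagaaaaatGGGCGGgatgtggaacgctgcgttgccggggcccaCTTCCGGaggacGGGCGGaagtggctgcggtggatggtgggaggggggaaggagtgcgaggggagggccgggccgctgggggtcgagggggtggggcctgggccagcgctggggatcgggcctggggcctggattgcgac
PMEPA1 promoter, chr20:57709966-57710265, minus strand: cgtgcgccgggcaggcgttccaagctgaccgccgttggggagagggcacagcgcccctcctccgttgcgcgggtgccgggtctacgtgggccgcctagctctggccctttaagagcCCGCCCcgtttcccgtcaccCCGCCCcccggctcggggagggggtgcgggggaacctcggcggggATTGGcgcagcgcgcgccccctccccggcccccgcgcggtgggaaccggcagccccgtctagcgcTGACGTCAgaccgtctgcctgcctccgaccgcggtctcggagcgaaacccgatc
BRD2 promoter, chr6:32972834-32973133, plus strand: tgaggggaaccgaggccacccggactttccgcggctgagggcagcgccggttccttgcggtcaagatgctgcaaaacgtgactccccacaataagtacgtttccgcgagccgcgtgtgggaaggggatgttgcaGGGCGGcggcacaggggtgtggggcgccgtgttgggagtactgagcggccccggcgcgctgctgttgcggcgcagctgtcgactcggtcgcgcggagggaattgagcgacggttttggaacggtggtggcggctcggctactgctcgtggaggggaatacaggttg
MIR23AHG promoter, chr19:13842869-13843168, minus strand: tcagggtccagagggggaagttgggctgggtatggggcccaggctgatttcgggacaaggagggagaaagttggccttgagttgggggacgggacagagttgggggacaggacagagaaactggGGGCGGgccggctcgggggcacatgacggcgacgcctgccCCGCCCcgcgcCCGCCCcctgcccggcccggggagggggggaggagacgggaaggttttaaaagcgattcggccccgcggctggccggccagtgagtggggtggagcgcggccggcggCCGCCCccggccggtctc
MALAT1 promoter, chr11:65498795-65499094, plus strand: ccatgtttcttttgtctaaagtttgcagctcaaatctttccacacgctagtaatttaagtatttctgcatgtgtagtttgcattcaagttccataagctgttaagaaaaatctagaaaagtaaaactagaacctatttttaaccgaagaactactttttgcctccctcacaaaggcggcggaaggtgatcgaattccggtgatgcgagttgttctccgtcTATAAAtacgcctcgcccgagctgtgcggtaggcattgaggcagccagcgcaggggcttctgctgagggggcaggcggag
LINC01569 promoter, chr16:4253740-4254039, minus strand: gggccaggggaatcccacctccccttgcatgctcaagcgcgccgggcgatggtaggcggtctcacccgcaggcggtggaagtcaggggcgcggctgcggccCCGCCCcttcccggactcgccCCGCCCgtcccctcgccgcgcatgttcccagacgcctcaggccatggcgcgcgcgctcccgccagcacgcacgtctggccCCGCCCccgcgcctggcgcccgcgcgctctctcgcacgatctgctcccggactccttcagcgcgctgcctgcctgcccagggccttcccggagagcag
HCG14 promoter, chr6:28896280-28896579, plus strand: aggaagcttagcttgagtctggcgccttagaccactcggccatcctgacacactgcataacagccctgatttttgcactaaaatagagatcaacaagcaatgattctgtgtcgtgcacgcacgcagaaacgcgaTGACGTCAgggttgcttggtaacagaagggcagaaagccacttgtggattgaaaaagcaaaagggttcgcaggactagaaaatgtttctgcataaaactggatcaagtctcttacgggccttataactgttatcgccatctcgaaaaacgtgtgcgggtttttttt

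GC boxes were frequent in these promoters and forkhead letters rare. The median GC content of the 492 promoters under distal regions was 71.7%, against 70.0% for the 3959 under gene-end regions and 58.7% for all 34961. A GC box was found in 85.6% of the promoters under distal regions, 82.7% of those under gene-end regions and 45.0% of all. The forkhead letters were found in 1.22%, 1.79% and 3.42% of these sets, and the TATA box in 2.03%, 4.24% and 11.5%. An ETS site was found in 15.9%, 22.2% and 10.3%, the cyclic AMP response element in 3.25%, 3.71% and 1.85%, the AP-1 site in 2.44%, 2.93% and 7.68%, and the CCAAT box in 32.7%, 33.6% and 34.6%. Among the 8 printed, the promoter of MALAT1, a nuclear long non-coding RNA, holds a TATA box and has a GC content of 46.0%. That of HCG14, beside the leucine transfer RNA gene TRL-CAA1-1, holds a cyclic AMP response element, as does that of PMEPA1, a negative regulator of TGF-beta signalling. LINC01569 and MIR23AHG, the host gene of the miR-23a cluster, have 3 and 4 GC boxes. These matches describe letters in 300 bases and do not show that a factor binds them.

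Few microRNA hairpins lay under a distal region, 10 of the 1558 in the RefSeq table. The mature sequences of 3 of them, chosen after their values were seen, are given because these hairpins lie in or near well-known genes; capitals mark the seed, bases 2 to 8. MIR3190 and MIR3191 lie on opposite strands at chr19:47226942-47227021, inside BBC3, which encodes the pro-apoptotic protein PUMA. MIR132 lies at chr17:2049908-2050008, 4864 bp from an end of HIC1, a transcriptional repressor gene. No 2 of the 5 sequences share a seed.
hsa-miR-3190-3p: uGUGGAAGguagacggccagaga
hsa-miR-3191-3p: uGGGGACGuagcuggccagacag
hsa-miR-3191-5p: cUCUCUGGccgucuaccuucca
hsa-miR-132-3p: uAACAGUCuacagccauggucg
hsa-miR-132-5p: aCCGUGGCuuucgauuguuacu

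The region at MIR3190 and MIR3191 had fold enrichments of 14.1 and 19.1 in the untransfected lists, no peak in either siFOXA1 list, and a peak in 1 siNT list (4.70). It carried Pol II S5P and no FOXA1. The region at MIR132 had 8.42 and 13.5 in the untransfected lists and no peak in any transfected list. It carried H3K27ac and H3K4me3 but neither Pol II S5P nor FOXA1. Fold enrichment is the authors' own value of a peak over its background, and here the highest in the region was taken. It ranks peaks within a list; across lists it is given as description.

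Depth and overlap between lists limit these counts. The untransfected FGFR1 lists held 5341 and 13135 peaks, and replicate 2 held 93.1% of the replicate 1 peaks but replicate 1 only 36.3% of the replicate 2 peaks. The lists hold no read totals; the background recovered from their fold enrichments, in fragments per position, was 3.40 and 3.504 for untransfected FGFR1, 2.11 and 2.198 for siFOXA1 and 2.19 and 2.19 for siNT. Replicate 1 alone gave 1738 distal peaks and replicate 2 alone 5216. The distal share of single lists was 36.1% ± 5.07 (SD, n = 2) for untransfected FGFR1, with 32.5% and 39.7% in the 2 lists, and lay between 74.4% and 86.1% in the 4 transfected lists. As a check of the cell type, 38 of 40 luminal genes carried H3K4me3 and H3K27ac at an end, against 10 of 20 genes of basal or mesenchymal cells, 3 of 15 of blood cells and 5 of 14 of neurons or liver. Of all 19974 protein-coding genes, 13303 (66.6%) had H3K4me3 at an end. Regions are the units of the tests below, not replicates of a condition, and Wilson intervals cover counting error only.

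The distal regions were spread over genes and the gaps between them. Of the 1295, 698 (53.9%, 51.2 to 56.6) lay inside a protein-coding gene and 597 (46.1%) between genes. The median distance to the nearest protein-coding gene end was 11400 bp, with a range of 1002 to 3716889 bp; 922 lay over 5000 bp away and 142 (10.97%) over 100000 bp. Inside genes the median distance was 8092 bp and between genes 20065 bp. The members just inside the limit lay 1002 bp from an end of LOC124900193, 1012 bp from TSHZ3 and 1012 bp from PATZ1, and the nearest regions outside it 997 bp from SMIM45, 995 bp from TBC1D17 and 989 bp from CERCAM. The untransfected fold enrichments of these 3 members were 6.60 and 9.33, 4.55 and 4.44, and 4.09 and 4.66, and those of the 3 regions just outside 5.004 and 9.10, 5.23 and 5.11, and 4.09 and 5.99, so the limit cuts through like values. Distal regions were narrower than gene-end regions, with medians of 495 and 590 bp.

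**Figure D1:**
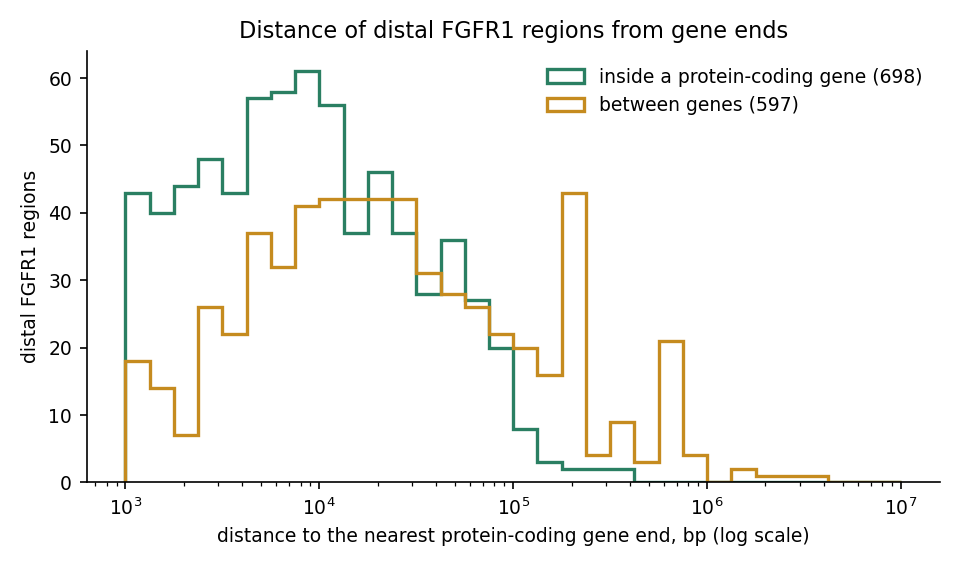
Number of distal FGFR1 regions (vertical axis) by distance to the nearest protein-coding gene end in bp on a log scale (horizontal axis), inside (698, green) and between (597, ochre) protein-coding genes. The regions inside genes centre on 8092 bp and those between genes on 20065 bp, with a tail to 3716889 bp.

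Many regions away from protein-coding gene ends still lay at an annotated transcription start. On the chromosomes the promoter table covers, 365 of 1180 distal regions (30.9%, 28.4 to 33.6) overlapped a RefSeq start, 281 of them a start of a protein-coding gene and 130 a start of a long non-coding RNA gene. All 281 lay inside genes, which the 1 kb limit makes certain, and were 44.7% of the 628 distal regions inside genes there. Of the gene-end regions on these chromosomes, 2569 of 3255 (78.9%) overlapped a start of a protein-coding gene. Ends of genes that are not protein-coding lay within 1 kb of 352 distal regions (27.2%), against 943 of 3441 gene-end regions (27.4%). At distal regions with the mark, the H3K27ac region reached within 1 kb of a protein-coding gene end in 256 of 1119 and the H3K4me3 region in 135 of 1084. Crowded windows and gene-free stretches, described below, were then set aside with the RefSeq starts and the ends of genes not protein-coding. This left 416 of the 1180 (35.3%). Reach of H3K27ac or H3K4me3 to a protein-coding gene end was no ground for setting a region aside. Of these 416, 332 (79.8%) carried H3K4me3, 367 (88.2%) H3K27ac, 176 (42.3%) Pol II S5P and 158 (37.98%) FOXA1.

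Distal regions clustered at a few places. KCNU1, a potassium channel gene on chromosome 8, held 15 regions, the ubiquitin ligase gene RNF169 on chromosome 11 held 9 and the zinc-finger gene ZMAT4 on chromosome 8 held 5; TFAP2A, a transcription factor gene of luminal cells, held 4. In all, 594 of 19974 protein-coding genes (2.97%) held a distal region, 67 of them at least 2, and 407 (2.04%) were nearest to one that lay between genes. Genes that held one were longer, with a median of 51.6 kb against 24.2 kb for all. Chromosomes 1, 11 and 8 had 178, 121 and 115 distal regions, and on chromosome 11 they were 46.2% of all FGFR1 regions. In 34 of 3043 windows of 1 Mb, 15 on chromosome 1, 9 on 8 and 7 on 11 among them, transfected FGFR1 peaks were over 10 times more frequent than the mean; these crowded windows held 279 distal regions (21.5%) and 273 gene-end regions (7.93%). Copy number was not measured here, and its part in these clusters was not tested.

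The highest fold enrichments lay far from genes, beside long gene-free stretches. The longest stretch without an annotated gene of each chromosome, which on most chromosomes spans the centromere, had 96 distal regions (7.41%) within 2 Mb, against 43 gene-end regions (1.250%). Of these, 26 were on chromosome 16, 18 on 4 and 12 on 17. The first of all distal regions (chr3:93470238-93470922), 402129 bp from PROS1, had 91.2 and 88.6 in the untransfected lists, 129 and 125 in the siFOXA1 lists and 126 and 126 in the siNT lists. The next (chr16:46389526-46391101), 187490 bp from SHCBP1, had 71.9 and 71.1 untransfected, 105.2 and 101.3 after siFOXA1 and 102 and 101 after siNT. Another on chromosome 16 (chr16:34586636-34587730), 196815 bp from LOC124903767, had 33.9 and 33.1, then 51.1 and 49.4 after siFOXA1 and 47.4 and 48.9 after siNT. In all 3 the siFOXA1 values lay close to the siNT values. The region 793299 bp from EMB on chromosome 5 (34.6 and 27.1) and neighbours of the chromosome 16 regions completed this set among the first 8. The 3 farthest members, nearest to LINC02798 (3716889 bp), TUBA3C (3036615 bp) and LOC124904970 (2299613 bp), belonged to it too and lacked H3K27ac. Of the 96, 92 carried H3K4me3 and 88 Pol II S5P, but only 44 H3K27ac and 46 FOXA1. Repeated DNA near centromeres can gather reads from many copies, and its part in these values was not tested.

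**Figure D2:**
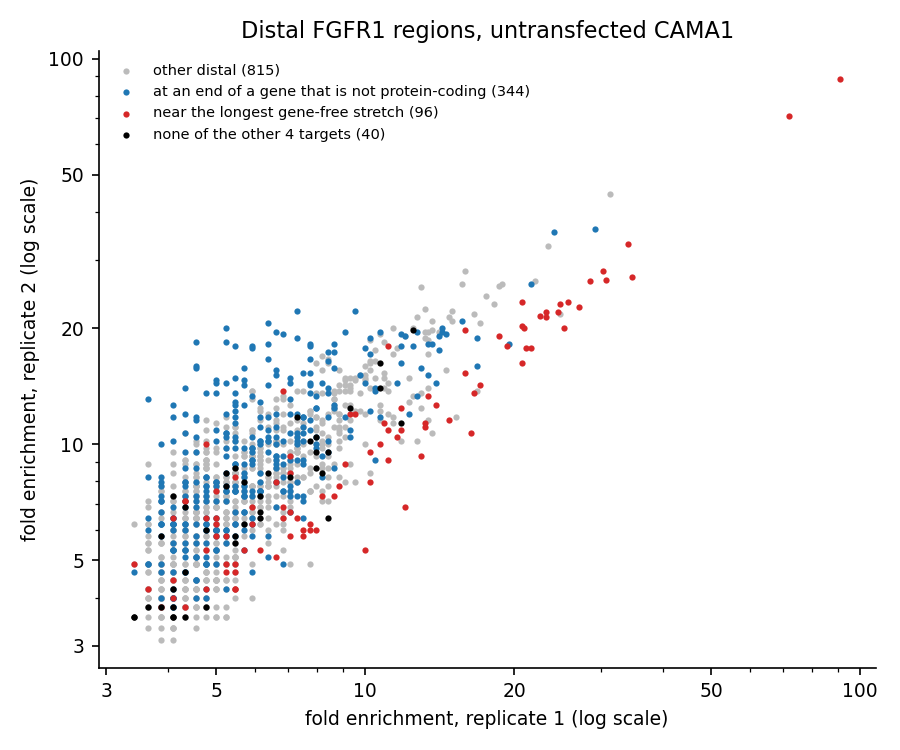
Authors' fold enrichment of each distal FGFR1 region in untransfected replicate 1 (horizontal axis, log scale) and replicate 2 (vertical axis, log scale), coloured by position or by the absence of the other 4 targets. Regions near gene-free stretches (red) reach 91.2 and 88.6 and lie lower in replicate 2, relative to replicate 1, than regions at ends of genes that are not protein-coding (blue).

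Outside the gene-free stretches, the strongest distal region lay 45899 bp from TRIM33, which encodes a transcriptional corepressor (chr1:114346453-114346891). Its fold enrichments were 31.2 and 44.4 in untransfected cells, 53.1 and 42.2 after siFOXA1 and 59.6 and 67.7 after siNT. It carried H3K27ac, H3K4me3 and FOXA1, and no Pol II S5P. Inside genes, the first was in PLXNB2, the gene of a semaphorin receptor (chr22:50276116-50276542; 24.8 and 21.8, then 26.4 and 20.01 after siFOXA1 and 30.1 and 34.5 after siNT). It carried H3K27ac alone. The second was in ZBTB40, a zinc-finger gene (chr1:22451706-22452130; 18.9 and 26.0), and it had no peak in either siFOXA1 list, against 8.47 and 5.64 in the siNT lists. The adhesion receptor gene ADGRG1 (17.5 and 24.2), ACBD4 (18.2 and 23.1) and COXFA4L2 (15.9 and 28.2) followed. All 3 were found in the 4 transfected lists; ADGRG1 had 29.6 and 23.8 after siFOXA1 against 47.7 and 45.1 after siNT.

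Distal regions carried the 4 other targets in every combination, and less often than gene-end regions did for all but FOXA1. The background for these counts is the share among all 4736 FGFR1 regions, 96.1% for H3K27ac, 95.3% for H3K4me3, 83.1% for Pol II S5P and 44% for FOXA1. H3K27ac was found at 1119 of 1295 distal regions (86.4%) and 3432 of 3441 gene-end regions (99.7%), an odds ratio of 0.0167 (95% Woolf interval 0.00850 to 0.0327; Fisher exact test, two-sided, adjusted p = 1.03e-89). H3K4me3 was found at 1084 (83.7%) and 3430 (99.7%), an odds ratio of 0.0165 (0.00895 to 0.0303; Fisher exact adjusted p = 6.86e-108). Pol II S5P was found at 818 (63.2%) and 3119 (90.6%), an odds ratio of 0.177 (0.151 to 0.208; Fisher exact adjusted p = 1.77e-100). Over the 2 lists of each target, the shares at distal regions were 87.1% ± 0.491 for H3K27ac, 84.6% ± 0.546 for H3K4me3 and 68.3% ± 6.66 for Pol II S5P (SD, n = 2), below those at gene ends in each list. Over the alternatives the odds ratio for H3K27ac lay between 0.0110 and 0.0467, the highest with at least 50% of the region covered, and that for H3K4me3 between 0.0126 and 0.0696, the highest with windows of 5 kb. All p-values of the 14 Fisher tests were adjusted together by the Benjamini-Hochberg method.

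FOXA1 went the other way, by a small margin. It was found at 616 distal regions (47.6%) and at 1470 gene-end regions (42.7%), giving an odds ratio of 1.22 (1.07 to 1.38; Fisher exact test, two-sided, adjusted p = 0.0033). Single lists gave 51.1% and 52.0% at distal regions against 48.1% and 49.7% at gene ends. The call ended without FOXA1 replicate 1 (1.09), without FOXA1 replicate 2 (1.13), without FGFR1 replicate 2 (1.10), when ends of every annotated gene were kept out (1.04) and when regions at transfer RNA genes were left out (1.14).

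**Figure D3:**
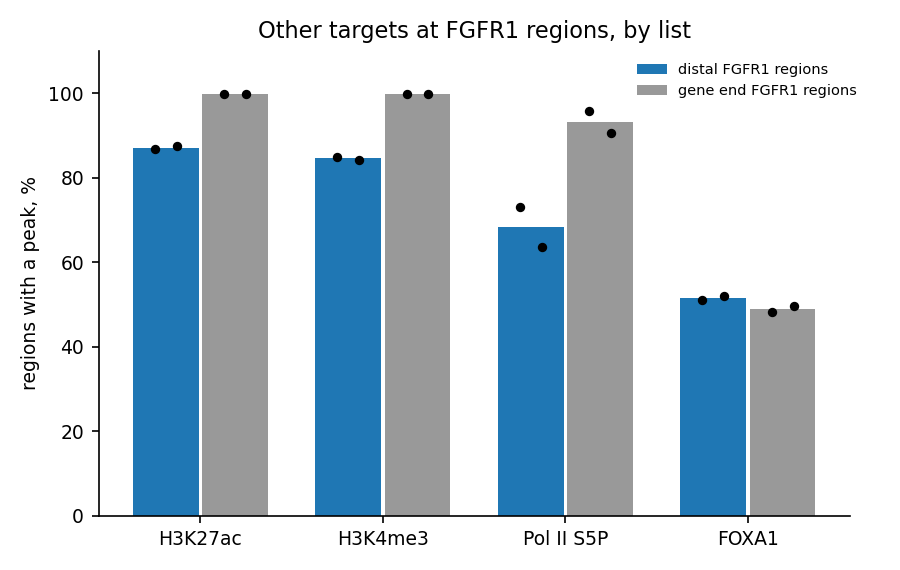
Share of distal (blue) and gene-end (grey) FGFR1 regions with a peak of each target, in percent; bars are means of the 2 lists and points the single lists. H3K27ac, H3K4me3 and Pol II S5P are lower at distal regions in both lists, and FOXA1 is higher by a few points.

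The most frequent combination at distal regions was all 4 targets, at 357 (27.6%, against 1382 or 40.2% at gene ends). H3K27ac, H3K4me3 and Pol II S5P without FOXA1 followed with 341 (26.3%, against 1736 or 50.5%). H3K27ac and H3K4me3 without Pol II S5P were found with FOXA1 at 149 distal regions and without it at 154. H3K27ac without H3K4me3, as at many enhancers, was found at 118, of which 57 carried FOXA1, 25 Pol II S5P and 62 lay in crowded windows. The 5 highest of these were in PLXNB2, ADGRG1 and PAK6, a kinase gene (chr15:40274686-40275061; 13.6 and 20.9), and near NCR2 (13.4 and 18.7) and the zinc-finger gene ZFP90 (13.4 and 17.1). All 5 were found in the 4 transfected lists.

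A set of 46 distal regions carried none of the other targets, against 3 gene-end regions. These were narrow, with a median width of 308.5 bp against 495 bp for all distal regions, yet not weak, with a median within-list percentile of fold enrichment of 64.8 against 65.8. The highest lay 2749 bp from ASB10 (chr7:151172568-151172949), with 12.5 and 19.8 in untransfected cells, 16.7 and 17.5 after siFOXA1 and 30.4 and 34.1 after siNT. The next lay in NRG2, the neuregulin 2 gene (10.7 and 16.2; 14.1 and 14.7 after siFOXA1; 22.3 and 23.5 after siNT), near the neuropeptide gene NPVF (10.7 and 13.99), in TDRD3 (11.8 and 11.3) and near OLFM4 (9.33 and 12.4). All 5 were present in every transfected list. In each of the 5, both siNT values were above both siFOXA1 values.

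Summits of FGFR1 lay closer to those of Pol II S5P and FOXA1 than to those of the histone marks. At distal regions the FGFR1 summits of the 2 lists were a median of 38 bp apart. Measured from replicate 2, the summit of the strongest overlapping peak was a median of 93 and 88 bp away for Pol II S5P, 125 and 132 bp for FOXA1, 271 and 272 bp for H3K4me3 and 288 and 283 bp for H3K27ac, in lists 1 and 2 of each target. Summits within 100 bp of FGFR1 made up 52.0% and 54.7% for Pol II S5P, 12.4% and 11.8% for H3K4me3, and 6.86% and 8.48% for H3K27ac. Gene-end regions gave medians of 84 and 80 bp for Pol II S5P and 252 and 247 bp for H3K27ac. There, 4.78% and 4.84% of the H3K4me3 summits lay within 100 bp of FGFR1. The distances describe regions that carry the target, and no test was made of them.

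**Figure D4:**
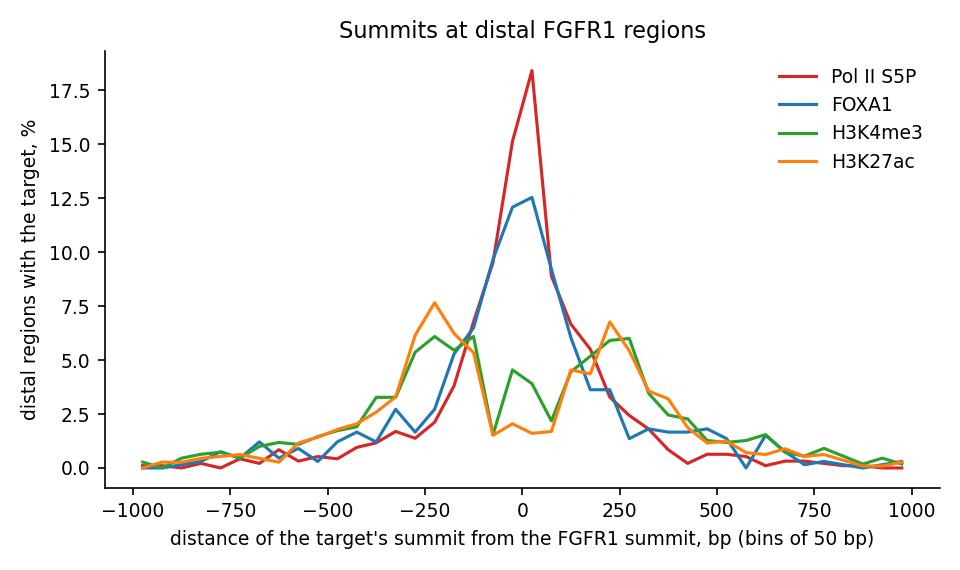
Position of the summit of each target in list 1 relative to the FGFR1 summit of replicate 2 (horizontal axis, bp, bins of 50 bp) as a share of the distal regions with that target (vertical axis, percent). Pol II S5P and FOXA1 peak at the FGFR1 summit, and H3K27ac and H3K4me3 are highest on both sides of it. H3K4me3 also has a smaller rise at the FGFR1 summit.

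Position inside a gene went with more Pol II S5P and less FOXA1. Pol II S5P was found at 481 of 698 distal regions inside genes (68.9%) and 337 of the 597 others (56.4%), an odds ratio of 1.71 (1.36 to 2.15; Fisher exact test, two-sided, adjusted p = 5.84e-06). Without the regions at RefSeq starts and chromosome 8, a setting added after the data were seen, this turned to 0.854 (0.645 to 1.13; Fisher exact adjusted p = 0.306). FOXA1 was found at 292 inside (41.8%) and 324 between (54.3%), an odds ratio of 0.606 (0.486 to 0.755; Fisher exact test, two-sided, adjusted p = 1.02e-05). This kept its direction and call in every alternative run, with odds ratios of 0.501 to 0.780.

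Regions at ends of genes that are not protein-coding were rich in H3K4me3. It was found at 335 of 352 distal regions at such an end (95.2%) and 749 of 943 away from one (79.4%), an odds ratio of 5.10 (3.06 to 8.52; Fisher exact test, two-sided, adjusted p = 1.92e-13); it was 1.85 with windows of 5 kb and 9.23 with lists of equal length. Pol II S5P was found at 239 (67.9%) and 579 (61.4%), an odds ratio of 1.33 (1.026 to 1.72; Fisher exact adjusted p = 0.035), a call that most alternatives ended, down to 0.907 with windows of 5 kb. It was 2.45 without transfer RNA gene ends, a setting added after the data were seen, and 1.999 from FGFR1 replicate 2 alone. The strongest such region covered RNU5E-1 (chr1:11907801-11910110), a gene of the U5 small nuclear RNA of the spliceosome, with 29.1 and 36.2 in untransfected cells, no peak after siFOXA1, and 7.85 and 5.33 after siNT. SCARNA2, an RNA of Cajal bodies, followed (chr1:109099894-109100906; 24.1 and 35.5, then 13.5 and 11.6 after siFOXA1 and 19.5 and 22.2 after siNT). RNVU1-27 (21.6 and 26.0) and RNVU1-6 (19.6 and 18.2), variant U1 genes, and RNU5B-1 (15.7 and 20.9) came next. None of them had a siFOXA1 peak. RNVU1-27 had a siNT peak in replicate 1 only (5.34), and RNVU1-6 and RNU5B-1 had no siNT peak either. Small nuclear and transfer RNA genes have near-identical copies, so reads assigned to a given copy are uncertain.

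Pol II S5P was found at every distal region of small nuclear RNA genes and at a minority of those of transfer RNA genes. The 14 distal regions at ends of small nuclear RNA genes all carried H3K27ac, H3K4me3 and Pol II S5P, and 10 carried FOXA1. Of 443 transfer RNA genes, which RNA polymerase III transcribes, 84 (18.96%) had a distal region at an end, in 68 regions, against 1.08% of all 39124 annotated genes that are not protein-coding, 9.09% of small nuclear RNA genes, 1.29% of long non-coding RNA genes, 1.26% of microRNA genes and 0.669% of small nucleolar RNA genes. The classes also differed in H3K4me3 at an end. It was found at 54.2% of transfer RNA genes, 24.0% of small nuclear RNA genes and 25.4% of long non-coding RNA genes. For microRNA genes it was 17.1% and for small nucleolar RNA genes 14.5%. All 68 regions at transfer RNA genes carried H3K4me3 and 66 H3K27ac, 13 (19.1%, 11.5 to 30.0) carried Pol II S5P and 58 (85.3%, 75.0 to 91.8) FOXA1. Of the 68, 6 and 4 had a peak in the siFOXA1 lists and 30 and 25 in the siNT lists. On chromosome 6, 30 of the 68 lay between positions 26312935 and 28982469, in the large transfer RNA gene cluster. The highest, chosen after their values were seen, were at TRL-CAA1-1 (10.7 and 19.5; no siFOXA1 peak; 5.34 and 4.70 after siNT), TRE-CTC1-1 (9.55 and 22.2; no siFOXA1 peak; 7.53 and 5.01) and TRT-CGT4-1 (9.10 and 19.5; no siFOXA1 peak; 5.65 and 4.39). These classes were also formed after the data were seen and carry no test. Other genes of short RNAs made by RNA polymerase III had a distal region at an end in 3 of 4 Y RNA genes, 2 of 4 genes of the table's scRNA class and 1 of 4 vault RNA genes. The RNase P and RNase MRP RNA genes, 1 of each, had none and lay at FGFR1 regions at ends of protein-coding genes.

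Genes of the lists examined held few distal regions, and the luminal list held the most. Of 40 luminal and oestrogen receptor genes 8 (20%) held a distal region, against 2.97% of all protein-coding genes. They were GATA3, SPDEF, KRT8, CELSR2, RARA, TFAP2A, ZNF217 and CCND1, and ELF3 and CXCL12 were nearest to one. Their median length, 24.8 kb, was close to that of all genes (24.2 kb). Of the 40, 38 carried H3K4me3 and H3K27ac at an end, while the 2.97% also takes in genes without these marks. The highest was in ZNF217, a transcription factor gene amplified in breast cancers (14.6 and 15.5; 9.97 and 8.44 after siFOXA1; 9.42 and 11.9 after siNT). SPDEF, an ETS factor of luminal cells, followed (11.8 and 10.2; no siFOXA1 peak; 6.90 and 5.95 after siNT), then CELSR2 (8.42 and 16.7; 9.004 and 11.3 after siFOXA1; 22.3 and 21.0 after siNT) and the keratin gene KRT8 (8.42 and 9.33; none in any transfected list). GATA3 had 6.14 and 7.55, no siFOXA1 peak and 5.01 in 1 siNT list. The CELSR2 region lay in a crowded window.

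The FGF and ERK signalling list had 1 of 37 genes (2.70%) holding a distal region, the adaptor gene GRB2 (5.23 and 7.55). The ERK-activated kinase gene RPS6KA1 was nearest to the strongest (12.3 and 12.9; 5.32 in 1 siFOXA1 list; 6.90 and 6.89 after siNT). A region 10232 bp from FGFR2 had 7.05 and 7.99, no siFOXA1 peak, and 10.0 and 7.52 after siNT. The 3 regions nearest to FGFR1, at 41764 to 84919 bp, were modest, with 5.69 and 6.66 in the highest, and lay in a crowded window. Immediate early genes held one in 5 of 31 (16.1%): IER2, ATF3, SRF, ZFP36L1 and NR4A1. Of the 31, 29 carried H3K4me3 and H3K27ac at an end, while the 2.97% of all protein-coding genes takes in genes without these marks. ATF3, a stress-induced factor, had 8.19 and 15.5 and no transfected peak, and a region at PVT1, 51279 bp from MYC, had 6.60 and 11.1 and none either. Chromatin regulators held one in 3 of 40 (7.50%): SETD1B, KDM2A and BRD2. Of these 40 genes, with a median length of 85.2 kb against 24.2 kb for all genes, 37 carried both marks at an end. The basal and mesenchymal, haematopoietic, and neuronal and hepatic lists held none among their 20, 15 and 14 genes. These lists are too short to set none apart from the 2.97% of all protein-coding genes. Of 48 non-coding RNA genes, 14 had a distal region at an end, SCARNA2, RN7SL2, MIR23AHG, NEAT1, MALAT1 and MIR17HG among them, against 1.08% of all annotated genes that are not protein-coding. Of the 48, 41 carried H3K4me3 and H3K27ac at an end. The 1.08% takes in 15212 pseudogenes, of which 4.04% had H3K4me3 at an end. RN7SL2, the RNA of the signal recognition particle, had 14.3 and 19.98, then 9.97 and 6.88 after siFOXA1 and 11.9 and 10.96 after siNT.

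Among H3K27ac regions away from gene ends, those with FGFR1 were few and carried the marks of transcription start. FGFR1 was found at 897 distal H3K27ac regions and absent from 77283. H3K4me3 was found at 797 regions with FGFR1 (88.9%) and 15124 lacking it (19.6%), an odds ratio of 32.8 (26.6 to 40.4). Pol II S5P was found at 542 (60.4%) and 1001 (1.295%), an odds ratio of 116 (100.4 to 135). Over the alternatives these lay between 18.4 and 50.9 for H3K4me3 and between 41.3 and 173 for Pol II S5P, the lowest within strata of H3K27ac strength. Both Fisher exact p-values were too small to be represented as numbers. FOXA1 was found at 536 (59.8%) and 36112 (46.7%), an odds ratio of 1.69 (1.48 to 1.94; Fisher exact test, two-sided, adjusted p = 1.88e-14). Single H3K27ac lists gave 2.92 and 3.05. The FOXA1 direction turned within strata of width (0.733) and of H3K27ac strength (0.530, added after the data were seen), and was 0.992 at a -log10 q of at least 5.

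After transfection fewer distal regions had an FGFR1 peak in the siFOXA1 lists than in the siNT lists. A peak was found at 35.0% and 34.4% of distal regions in the siFOXA1 lists and at 51.4% and 51.1% in the siNT lists. The means were 34.7% ± 0.382 and 51.2% ± 0.164 (SD, n = 2 each), a ratio of 0.677. The groups did not overlap, and the exact permutation p of 0.333, two-sided, is the smallest that 2 against 2 allows. The siFOXA1 lists were shorter as a whole, with 4332 and 5056 peaks against 6007 and 6594 in the siNT lists. The part of list length in the lower shares and in the losses below was not tested. At gene ends the shares were 18.5% and 15.0% after siFOXA1 and 31.5% and 35.3% after siNT. Of distal regions, 311 (24.0%) were in all 4 transfected lists and 453 (35.0%) in none, against 313 (9.10%) and 1831 (53.2%) of gene-end regions.

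Distal regions were found after transfection more often than gene-end regions, and those found with siNT were lost less often after siFOXA1. Both siNT lists held 536 of 1295 distal regions (41.4%) and 790 of 3441 gene-end regions (22.96%; 28% of all regions), an odds ratio of 2.37 (2.07 to 2.72; Fisher exact test, two-sided, adjusted p = 2.03e-34). Of these, 107 of 536 distal regions (19.96%, 16.8 to 23.6) and 245 of 790 gene-end regions (31.0%, 27.9 to 34.3) had no peak in either siFOXA1 list, against 26.5% of all, an odds ratio of 0.555 (0.428 to 0.7195; Fisher exact test, two-sided, adjusted p = 9.33e-06). Over the alternatives the odds ratio for presence lay between 1.58, without FGFR1 replicate 1, and 5.001, with at least 50% of the region covered. That for loss lay between 0.305, with at least 50% of the region covered, and 0.759, without FGFR1 replicate 1. It was 0.670 without regions near gene-free stretches, a setting added after the data were seen. Regions entered the loss comparison by their siNT peaks. The siNT fold enrichment was not matched between distal and gene-end regions, so the odds ratio does not measure a differing response. The reverse, a peak in both siFOXA1 lists and neither siNT list, was found for 2 distal regions and 8 gene-end regions. Among classes of distal regions, 33 of 82 at RefSeq starts outside chromosome 8 (40.2%) were lost. So were 37 of 97 at ends of genes that are not protein-coding (38.1%), against 2 of 81 near gene-free stretches (2.47%). Differences in loss between classes were not tested.

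Loss did not differ detectably by FOXA1. Of distal regions in both siNT lists, 59 of 263 with FOXA1 (22.4%, 17.8 to 27.9) and 48 of 273 without (17.6%, 13.5 to 22.5) were lost, an odds ratio of 1.36 (0.886 to 2.07; Fisher exact test, two-sided, adjusted p = 0.162). It passed the threshold without FGFR1 replicate 2 (1.52, Fisher exact adjusted p = 0.046) and without RefSeq starts and chromosome 8 (1.78, Fisher exact adjusted p = 0.039). Within strata of FGFR1 strength the odds ratio was 1.57 and also passed. Of all distal regions, the shares with a siFOXA1 peak were 36.1% ± 0.804 with FOXA1 and 33.4% in both lists without, and the shares with a siNT peak 53.5% ± 0.574 with and 49.2% ± 0.208 without (SD, n = 2).

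The classes of distal regions ranged widely in how often they were found again. Regions near gene-free stretches were found at 84.4% and 82.3% after siFOXA1 and 86.5% and 86.5% after siNT, and 76 of 96 were in all 4 lists. Regions with none of the other targets gave 56.5% and 58.7% after siFOXA1 and 80.4% and 69.6% after siNT, and those with H3K27ac and no H3K4me3 gave 53.4% and 61.0% after siFOXA1 and 67.8% and 65.3% after siNT. Regions with all 4 targets gave 31.1% and 26.6% after siFOXA1 and 47.1% in both siNT lists. Regions at RefSeq starts gave 15.1% and 13.2% after siFOXA1 and 31.8% and 34.2% after siNT. At transfer RNA ends they were 8.82% and 5.88% after siFOXA1 and 44.1% and 36.8% after siNT. Differences between these classes were not tested. Outside crowded windows and gene-free stretches, 27.5% and 25.8% of the remaining 945 distal regions were found after siFOXA1 and 46.3% and 45.6% after siNT. Crowded windows were themselves chosen by transfected peaks, so shares that set them aside or take them in depend on that choice. They held 62 of the 118 regions with H3K27ac and no H3K4me3, 13 of the 46 with no other target and 88 of the 357 with all 4. The 118 were also weak in untransfected cells, with a median percentile of 36.1 against 65.8 for all distal regions.

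**Figure D5:**
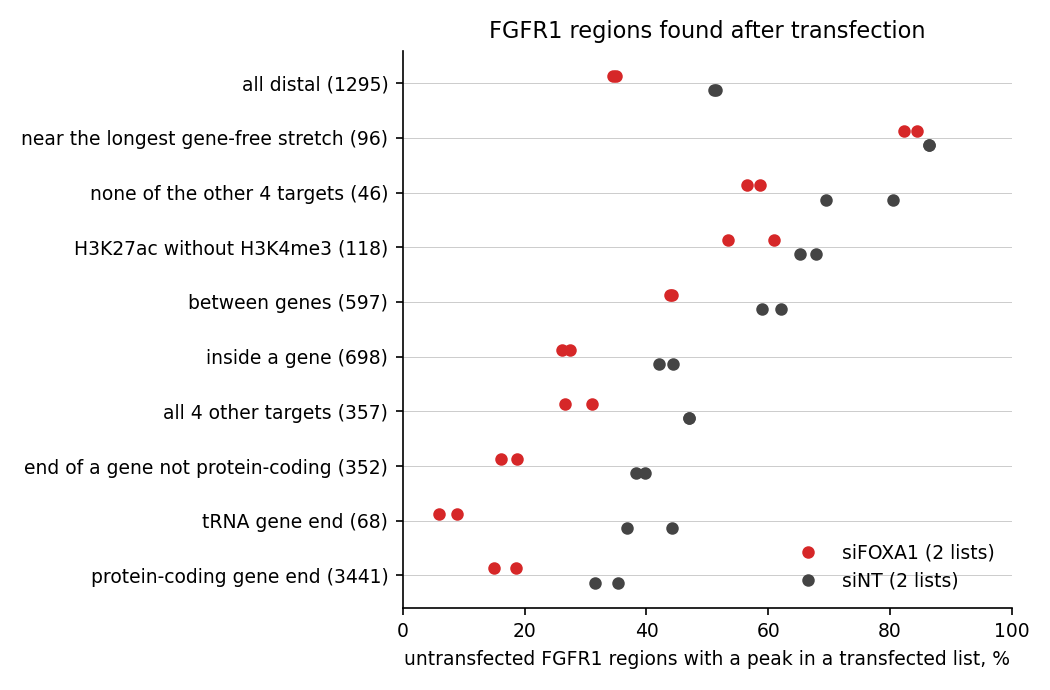
Share of untransfected FGFR1 regions with a peak in each siFOXA1 list (red) and each siNT list (dark grey), in percent, by class of region, with the number of regions in brackets. All distal regions sit at 35.0% and 34.4% after siFOXA1 against 51.4% and 51.1% after siNT; regions near gene-free stretches sit highest and transfer RNA gene ends lowest after siFOXA1.

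The highest lost regions reported here carried H3K27ac and H3K4me3, with siNT values below the untransfected ones. RNU5E-1 (29.1 and 36.2 untransfected; 7.85 and 5.33 after siNT) led. ZBTB40 came next. BRD2, a bromodomain gene whose internal start is printed above, had 13.2 and 22.4 untransfected and 7.85 and 7.21 after siNT. SQSTM1, the autophagy receptor gene, had 11.4 and 19.98 untransfected and 6.90 and 5.01 after siNT. FOXA1 was found at RNU5E-1, ZBTB40 and BRD2 and not at SQSTM1, and ZBTB40 lacked Pol II S5P. In contrast, the 5 highest members in all 4 transfected lists were the region near TRIM33 and 4 near gene-free stretches. Among regions with FOXA1 and no Pol II S5P, 213 in all, ZNF131 (15.7 and 26.0; 25.1 and 24.7 after siFOXA1; 46.1 and 42.0 after siNT) and the annexin gene ANXA9 (16.8 and 18.9; 15.1 and 15.6 after siFOXA1; 31.7 and 33.8 after siNT) followed TRIM33 and ZBTB40.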

How the data were processed

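Peak lists of 14 CAMA1 ChIP-seq libraries were used as deposited. Per the submitters' processing notes, Bowtie2, SAMtools, Picard and MACS2 were used with hg38; neither versions nor roles are given there. Each row of the lists deposited by the authors gives a fold enrichment, a ratio to background, and a -log10 p-value and -log10 q-value. The fold enrichments of every list but those of Pol II S5P lay on a grid (tolerance 1.5e-05) of a single background per list, so a list was called against 1 background with no visible correction for copy number or input. Peak names carry other replicate numbers than the labels for untransfected FGFR1, and FOXA2 for FOXA1; the labels were followed.

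Overlapping peaks present in both lists of a group (1 bp) were merged, and genes came from RefSeq (GRCh38.p14, the same primary assembly), with 19974 protein-coding and 39124 other genes. Counts were compared by Fisher's exact test with Woolf intervals, Benjamini-Hochberg over 14 tests, in Python 3.11.15 with scipy 1.17.1 after tests on simulated data; stratified odds ratios were Mantel-Haenszel estimates over 5 quintiles. Libraries were compared by an exact permutation test. Regions were ranked by the mean within-list percentile of fold enrichment and named by the gene that held them or the nearest, the highest 8 of all and the highest 3 to 5 of each class and up to 8 of each gene list. A region that this rule names is not reported here. The members, lists, classes and tests were chosen with earlier results of these data known. Classes of transfer RNA, gene-free, crowded and unmarked regions were formed after seeing values. Alternatives were a stricter q, other overlaps and windows, left-out libraries and spans, equal lists and strata.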

Additional observations from a re-analysis of the deposited data

Results flagged for a closer look

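The share of regions lost after siFOXA1 differed between distal and gene-end regions, by a test with regions as units. The regions share the same 2 siNT and 2 siFOXA1 lists, so the test holds no replication of the treatment. They entered it by their siNT peaks, and siNT fold enrichment was not matched between the groups. Of regions in both siNT lists, 107 of 536 distal and 245 of 790 gene-end regions were absent from both siFOXA1 lists, an odds ratio of 0.555 (0.428 to 0.7195; Fisher exact test, two-sided, adjusted p = 9.33e-06). Over the alternatives run it lay between 0.305 and 0.759. Outside crowded windows and gene-free stretches, 95 of 349 distal regions (27.2%) and 210 of 603 gene-end regions (34.8%) were lost. Near gene-free stretches 2 of 81 distal regions were lost, and in crowded windows 11 of 128. At RefSeq starts outside chromosome 8, 33 of 82 distal regions were lost (40.2%). Those at ends of genes that are not protein-coding lost 37 of 97 (38.1%). Crowded windows were chosen by their count of peaks in these same transfected lists, so losses inside and outside them are description only. The part of copy number and of repeated DNA in the difference between distal and gene-end regions was not tested.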

How the results depend on the processing

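Of 310 alternative values for 16 results, 284 were counted as the same. For the 14 Fisher results this meant the same direction and the same side of the threshold. For the number of distal regions it meant a count within a set factor, and for the ratio of shares the same direction only. The number of distal regions was 1295, 815 without RefSeq starts and chromosome 8, and 1738 to 5216 from a single FGFR1 list. FOXA1 at distal against gene-end regions (1.22) was 1.04 with ends of every annotated gene, 1.14 without transfer RNA gene ends, and 1.09 to 1.20 with a list left out. Pol II S5P at ends of genes that are not protein-coding (1.33) was 1.296 at -log10 q of at least 5, 1.34 with reciprocal overlap of 50%, 1.16, 1.18 and 0.907 with windows of 500 bp, 3 kb and 5 kb, 1.29 without the 8p11 and 11q13 spans, 1.27 without crowded windows, 1.27 with lists of equal length, 1.27 and 0.946 within strata of FGFR1 strength and width, 1.032 without RefSeq starts and chromosome 8, and 1.31 to 1.999 with a list left out. FOXA1 at distal H3K27ac regions with FGFR1 (1.69) was 0.992 at the stricter q, 0.733 within strata of width and 0.530 within strata of H3K27ac strength. Loss with against without FOXA1 (1.36) was 1.57 within strata of FGFR1 strength, 1.78 without RefSeq starts and chromosome 8, and 1.02 to 1.52 with a list left out. Pol II S5P inside against between genes (1.71) was 0.854 without RefSeq starts and chromosome 8. The causes were not tested. With the replicate number as a block, the siFOXA1 to siNT ratio of shares was 0.677 as before; the numbers share no stated batch, their differences correlated at 0.049 over 1295 regions, and 2 pairs allow no p below 0.5. The lists hold no reads, so regions absent from a list cannot be told apart from regions below its depth.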
